A study of Homo sapiens with 6 samples.

Results

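The mRNA of 10 genes of cell adhesion and epithelial-mesenchymal regulation was examined in SiHa, a human cervical cancer cell line that carries human papillomavirus, after knockdown of CNN3, an actin-binding calponin. They are the cadherins CDH1, CDH2 and CDH3, the epithelial adhesion gene EPCAM, the intermediate filament gene VIM, and the transcription factors ZEB1, ZEB2, SNAI1, SNAI2 and TWIST1. The 10 genes were chosen by symbol, and all 10 were found among the 48162 Ensembl genes of the count table through GENCODE 29 names. RNA was sequenced from 3 samples transfected with si-CNN3 (si-CNN3#1 of the study) and 3 transfected with si-NC, a control small interfering RNA (siRNA). All were harvested 48 h after transfection, so the controls had also received transfection reagent and an RNA duplex. The study describes 3 independent assays per group. Only this 1 siRNA against CNN3 was sequenced, in 1 cell line, and the effects of CNN3 loss and of the duplex itself cannot be told apart here. Counts on genes totalled 18147028 to 19026341 per si-CNN3 sample and 20287139 to 24976517 per si-NC sample. CNN3 itself was reduced to 50.9% of the control level (95% interval 47.2% to 55%), on 490 to 574 counts after its knockdown and 1134 to 1288 in the controls. In such bulk samples, fewer cells of a type and less RNA per cell cannot be told apart.

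Classical cadherins hold neighbouring cells together through their extracellular domains and bind catenins inside the cell. CDH1 (E-cadherin) and EPCAM mark epithelial cells, whereas CDH2 (N-cadherin) and VIM (vimentin) mark mesenchymal cells. In the epithelial-mesenchymal transition (EMT), factors of the ZEB, SNAI and TWIST families bind E-box sequences and repress CDH1, and cells gain motility.

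The siRNAs that define the groups are shown because the letters of a guide strand can also pair with other transcripts. Each sense strand is given 5′ to 3′, with capitals at bases 12 to 18, the 7 letters that a transcript must hold to pair with bases 2 to 8 of the guide.
si-CNN3: gcagaugggaaCCAACAAatt
si-NC: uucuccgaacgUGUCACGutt
Among the longest protein-coding GENCODE 29 transcripts of the 10 genes, those of CDH1 and ZEB2 held the si-CNN3 letters, compared with 24.3% of 12697 tested genes. None of the 10 held the si-NC letters, which 7.16% of the tested genes held. The CDH1 match lay in the coding sequence on the plus strand at chr16:68808700-68808706 of GRCh38. ZEB2 had 1 match in the coding sequence (chr2:144399316-144399322, minus strand) and 1 in the 3′ UTR (chr2:144386618-144386624). The matches are shown with their flanks, in transcript orientation.
CDH1 coding: tcagatcaaatCCAACAAagacaaagaag
ZEB2 coding: aaacatagtccCCAACAAagccggagttt
ZEB2 3′ UTR: aagagataggaCCAACAAacaatgaatgt
A letter match is a description, and neither gene passed the test between the groups.

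SiHa cells expressed epithelial cadherins together with several EMT transcription factors, while the deposited counts of N-cadherin and vimentin were near 0. Levels are compared between genes in FPKM (counts scaled by gene length and library total). CDH1 was the highest of the 10 in control cells, at 20.4, 20.2 and 19.5 FPKM in si-NC replicates 1, 2 and 3. CDH3 (P-cadherin), the cadherin of basal epithelial layers, followed at 18.2, 18 and 17.7 FPKM. Both genes are neighbours on chromosome 16 (GRCh38, plus strand), with CDH3 at 68636189 to 68722616 and CDH1 at 68737225 to 68835548. EPCAM (chromosome 2) was lower, at 5.89, 5 and 5.46 FPKM. Of the tested genes, 60.1% lay below CDH1 and 36.4% below EPCAM by mean FPKM in si-NC.

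Among the repressors, SNAI1 (Snail), a zinc-finger factor, was at 18.6, 16.6 and 17.7 FPKM in si-NC, and its range overlapped that of CDH3. TWIST1, a basic helix-loop-helix factor, was at 16.7, 15 and 15 FPKM. The paired zinc-finger factors ZEB1 (11.3, 10.3 and 10.9 FPKM) and ZEB2 (10.6, 10.6 and 10.2 FPKM) were alike within their ranges. SNAI2 (Slug) was far lower, at 0.689, 0.485 and 0.729 FPKM, on 26 to 34 counts. The order in si-NC was therefore CDH1, then CDH3 and SNAI1, which overlapped, then TWIST1, whose highest sample overlapped the lowest of SNAI1, then ZEB1 and ZEB2, which overlapped, then EPCAM, SNAI2, VIM and CDH2, each with a range below the one before. This order depends on the gene length. The authors' FPKM and counts imply 1 length per gene, for example 1816 bases for CDH1 and 1665 for ZEB2. The longest coding transcripts of these genes in GENCODE 29 have 4889 and 9583 bases. With the lengths of the longest coding transcripts SNAI1 came first (17.7 FPKM), then TWIST1 (8.67) and CDH1 (7.44), and ZEB2 fell to 1.82 FPKM, below EPCAM (3.6).

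Of VIM, 6, 8 and 5 counts were found in si-NC against 3, 2 and 3 after knockdown, and CDH2 had 1 count in all 6 samples together, in si-NC replicate 2. Neither passed the filter on low counts. The 0 counts of CDH2 with si-CNN3, out of 56057844, allow a level of up to 0.0658 CPM (upper end of the exact Poisson 95% interval). A floor of 3 counts over the group corresponds to 0.0535 CPM. VIM summed to 8 counts with si-CNN3 and 19 with si-NC, or 0.143 CPM (exact Poisson 95% interval 0.0616 to 0.281) and 0.284 CPM (0.171 to 0.443). The knockdown samples did not overlap the controls, on these few counts, and 28.2% of all tested genes showed such a separation. The ratio of the sums was 0.503 with an exact 95% interval of 0.191 to 1.2, which covers counting error only. Without the filter, edgeR gave VIM a log2 fold change of -0.98 (95% interval -2.29 to 0.33, adjusted p = 0.582). The antisense genes VIM-AS1 and AL133415.1, which overlap VIM, and the pseudogene VIM2P had 0 counts in every sample. Whether counting used strand is not given in the sources used here. These 0 counts therefore do not show whether reads of VIM were left uncounted in the overlaps.

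**Figure D1:**
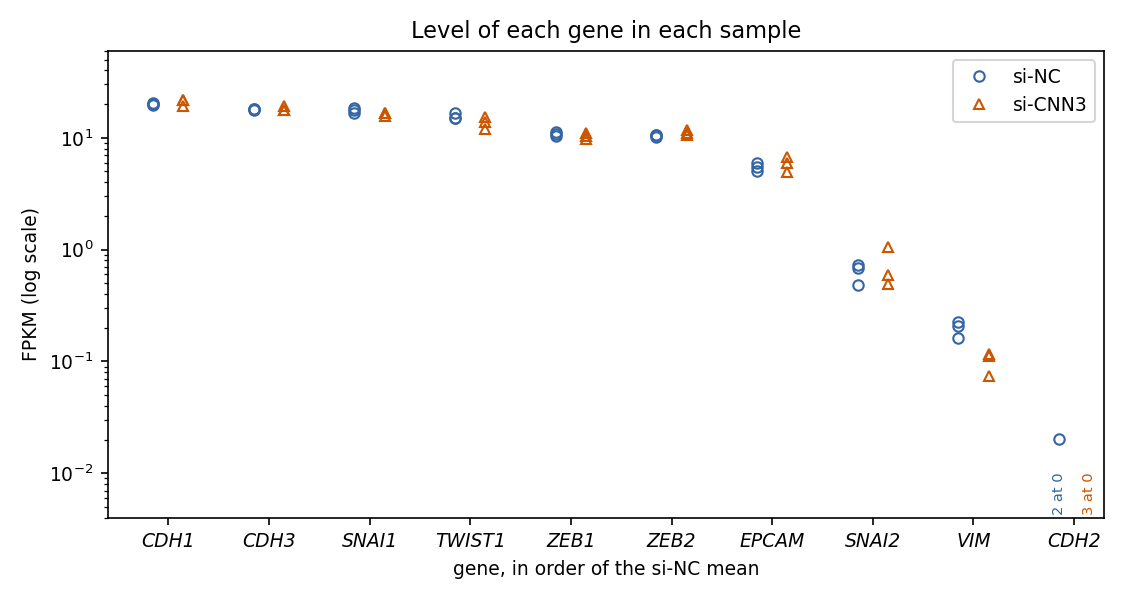
FPKM of each of the 10 genes (log scale) in each si-NC sample (circles) and si-CNN3 sample (triangles), ordered by the si-NC mean, with samples at 0 written as a number. CDH1 to EPCAM sit between 4.90 and 21.8 FPKM in both groups, while SNAI2, VIM and CDH2 sit near or below 1.05 FPKM.

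None of the measured cadherins and EMT regulators passed the test between the groups. Of the 8 genes that passed the filter, 0 rose and 0 fell at an adjusted p of 0.05 (quasi-likelihood test of edgeR, adjusted by Benjamini-Hochberg over all 15860 genes tested), whereas 13.3% of all tested genes passed, 6.17% higher and 7.14% lower with si-CNN3. Scaled by total counts only, 1294 genes were higher and 863 lower, against 978 and 1133 here. DESeq2 called 0 of the 7 it tested. At an unadjusted p under 0.05 there were 2, TWIST1 and SNAI1, compared with 25.1% of all tested genes. A missed threshold does not show that levels were equal, so the interval of each change is given with the values, in CPM normalized by the TMM method (counts scaled to the library total and between samples).

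CDH1 was at 39.6, 34.9 and 39.2 CPM with si-CNN3 and 37.5, 36.8 and 35.6 CPM with si-NC. The groups overlapped, with si-CNN3 replicate 2 the lowest of the 6 samples. The si-CNN3 level was 103% of control with a 95% interval of 96.1% to 111% (log2 fold change 0.05, standard error 0.05, adjusted p = 0.632). CDH3 was at 29.4, 26.9 and 27.1 CPM against 27.6 ± 0.448 CPM (SD, n = 3) in si-NC, and its interval ran from 93.1% to 109% of control (adjusted p = 0.932). EPCAM, with 106 to 145 counts per sample, varied more among the knockdown samples, at 7.69, 5.52 and 6.74 CPM, and its groups overlapped. Its interval ran from 90.6% to 126% of control (adjusted p = 0.685).

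Of the 5 transcription factors, 0 passed the test. TWIST1 was at 14.2, 11 and 12.7 CPM with si-CNN3 and 15.7, 13.9 and 14 CPM with si-NC. Only si-CNN3 replicate 1 reached the si-NC range. Its level was 86.9% of control (95% interval 77.4% to 97.6%, log2 fold change -0.20, standard error 0.08, adjusted p = 0.103). Without si-CNN3 replicate 1 TWIST1 passed the threshold (log2 fold change -0.29, adjusted p = 0.0279), and over all 16 alternative settings the adjusted p ran from 0.0279 to 0.497. SNAI1 was at 27.8, 26.3 and 28 CPM with si-CNN3 and 31.7, 28.2 and 30.1 CPM with si-NC. It was the only 1 of the 8 whose groups did not overlap in normalized CPM, by a gap of 28 against 28.2, and 28.2% of all tested genes showed such a separation. In FPKM its groups overlapped. SNAI1 stood at 91.5% of control (95% interval 84.4% to 99.2%, adjusted p = 0.146).

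The ZEB factors gave estimates of opposite sign and neither passed. ZEB1 was at 27.2, 23.8 and 25.2 CPM with si-CNN3 and 28.1, 25.4 and 27 CPM with si-NC, with overlapping groups and an interval from 87.4% to 103% of control (adjusted p = 0.496). ZEB2 was at 17.5, 18.3 and 19.6 CPM against 17.8, 17.7 and 17.1 CPM, again overlapping, with an interval from 95.6% to 116% (adjusted p = 0.564). SNAI2 was spread widely, with 20, 24 and 41 counts after knockdown, and its interval of 77.8% to 159% of control was the widest of the 8 (adjusted p = 0.777). The antisense gene ZEB1-AS1, which overlaps ZEB1, had 21 to 40 counts per sample. Whether counting used strand is not given in the sources used here, so reads of this pair may not be told apart.

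**Figure D2:**
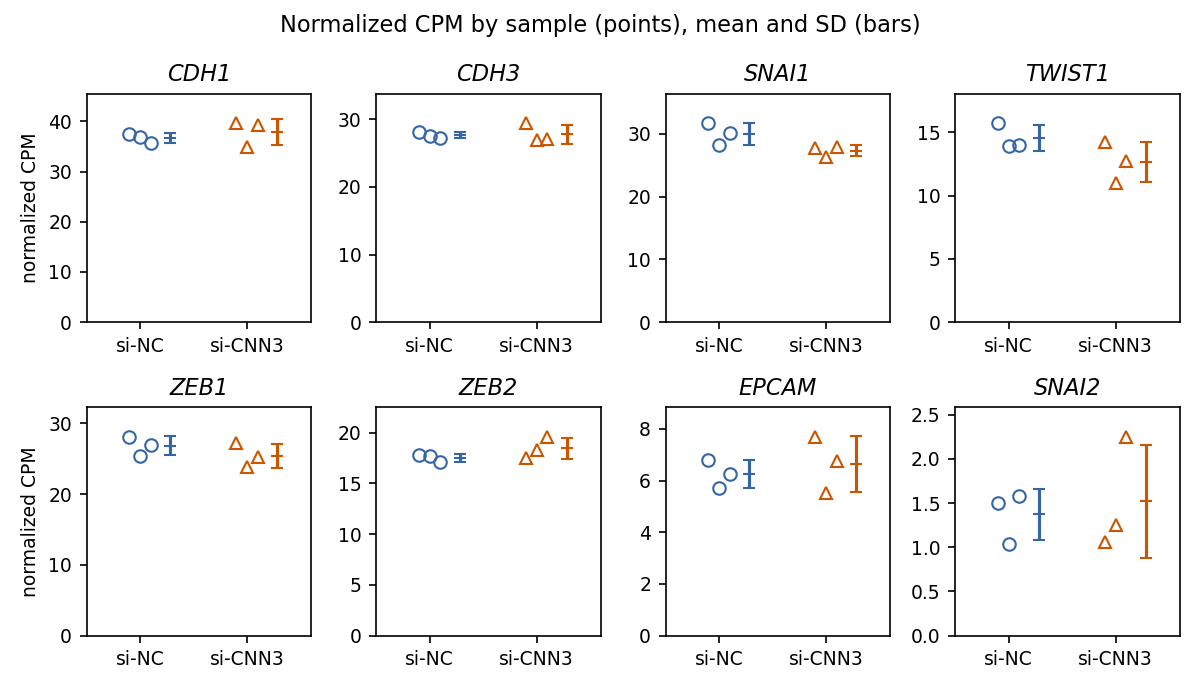
TMM-normalized CPM of the 8 tested genes in each sample (points) with the mean and SD of 3 samples beside them, si-NC in circles and si-CNN3 in triangles, on axes that start at 0. The groups overlap in every panel except SNAI1, where the si-CNN3 samples lie between 26.3 and 28 and the si-NC samples between 28.2 and 31.7.

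**Figure D3:**
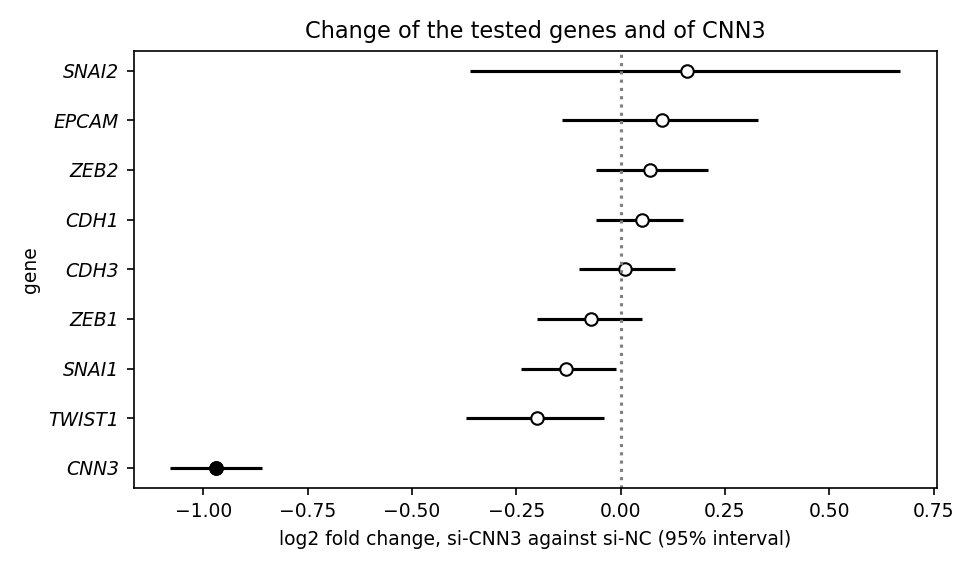
Log2 fold change of si-CNN3 against si-NC with 95% intervals from edgeR's quasi-likelihood fit, for the 8 tested genes (open points, adjusted p above 0.05) and CNN3 (filled point, -0.97). The intervals of TWIST1 (-0.37 to -0.04) and SNAI1 (-0.24 to -0.01) lie below 0 before adjustment, and SNAI2 has the widest interval.

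The balance of cadherins within each sample, which does not depend on scaling between samples, was also described without a test. The log2 ratio of CDH3 to CDH1 in FPKM was -0.18, -0.13 and -0.28 with si-CNN3 and -0.17, -0.16 and -0.14 with si-NC, so the groups overlapped. That of ZEB1 to CDH1 was -0.98, -0.99 and -1.07 with si-CNN3 and -0.85, -0.97 and -0.83 with si-NC, a mean difference of -0.12. These groups were separated only by -0.98 against -0.97. How often other gene ratios separate was not computed. That of VIM to CDH1 was -7.6, -8.03 and -7.53 after knockdown and -6.61, -6.48 and -6.9 in the controls, on the 2 to 8 vimentin counts per sample. A CDH2 to CDH1 ratio existed in si-NC replicate 2 alone, where CDH2 had 1 count.

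RefSeq promoter windows (GRCh38.p14, 250 bases before to 50 bases after a start) were at hand for CDH2, VIM, ZEB1 and ZEB2, and not used here for CDH1, CDH3, EPCAM, SNAI1, SNAI2 and TWIST1. The E-box letters CACCTG or CAGGTG, which are each other's reverse complement and so cover both strands, stood in 2 of the 7 ZEB1 windows and in none of the windows of CDH2, VIM and ZEB2, against 20.6% of 35116 windows. The looser CANNTG, which includes both, stood in 4 ZEB1 windows, 1 CDH2 window and the ZEB2 window, against 68.7% of all windows. In ZEB1, the first base of a match lay at -57 from the start of the upstream window, and at -242, -85 and 33 from that of the other. The match at -57 is shown with its flanks and the E-box in capitals. The whole stretch printed lies at chr10:31318348-31318377 on the plus strand.
ZEB1: ccgaggtgacagCAGGTGagggccgggtgc
These letters are a description and no binding was measured.

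Genes that act around these regulators did include called ones, with no test between the lists. Of 13 tested further EMT transcription factors, 1 rose and 2 fell, 23.1% against 13.3% of all tested genes (median log2 fold change 0.08, against 0.002 over all tested genes). ETS1 was at 146, 143 and 147 CPM with si-NC and fell to 117, 104 and 115 CPM with si-CNN3 (log2 fold change -0.38, adjusted p = 6.42e-13, edgeR). TCF3, a partner of TWIST1, had a log2 fold change of -0.11 (adjusted p = 0.013, edgeR). TCF3 lost the call with DESeq2 and both limma settings, and without si-CNN3 replicate 3 or si-NC replicate 1 or 2 (adjusted p 0.000402 to 0.185 over its 16 edgeR, DESeq2 and limma alternatives).

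Factors that hold cells in an epithelial state showed 3 higher and 0 lower among 13 tested, 23.1% called against 13.3% of all tested genes (median log2 fold change 0.05). KLF4 was at 3.18, 4.37 and 4.11 CPM with si-CNN3 and 1.89, 2.37 and 2.55 CPM with si-NC (log2 fold change 0.77, standard error 0.17, adjusted p = 0.000807, edgeR). Its groups did not overlap, as in 28.2% of all tested genes. TP63, the master factor of squamous epithelium, was at 3.87, 5 and 4.33 CPM against 2.99, 2.53 and 2.74 CPM (log2 fold change 0.68, standard error 0.15, adjusted p = 0.000958). Both are expressed at a low level, and with limma on log2 FPKM their estimates were 0.48 and 0.42 with a pseudocount of 1, while with 0.1 neither passed (adjusted p = 0.0561 and 0.0588, the highest over the 16 alternatives of each, the lowest being 0.000103 and 0.000224). KLF5, far more abundant, had a log2 fold change of 0.09, and lost the call without si-NC replicate 2 or 3 (adjusted p up to 0.0589 over its alternatives). ESRP2, an epithelial splicing factor, was at 93.6 FPKM in si-NC and did not pass (log2 fold change 0.04).

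Of 27 other cadherins and desmosomal cadherins, 6 could be tested and 0 passed (1 at an unadjusted p under 0.05 in edgeR, and 0 calls in DESeq2). CDH13 (T-cadherin, 47.5 FPKM in si-NC) and DSG2 (40.9 FPKM) were the most abundant. Of 15 tested catenins and adherens junction partners 2 passed, 13.3% as over all tested genes. PLEKHA7 rose (log2 fold change 0.40, adjusted p = 0.000375) and NECTIN1 fell (-0.22, adjusted p = 0.00132). NECTIN1 was called in 14 of its 16 alternatives (adjusted p up to 0.0964 over edgeR, DESeq2 and limma). CTNNA1 and CTNNB1, the catenins that link cadherins to actin, were abundant and had log2 fold changes of -0.07 and -0.04 (adjusted p = 0.0588 and 0.440). CTNNA1 passed in 4 of its 16 alternatives, among them without si-CNN3 replicate 3 (adjusted p = 0.0360, with 0.00317 to 0.276 over its alternatives). Of 26 tested epithelial junction genes, 3 rose and 1 fell, 15.4% called against 13.3% of all tested genes. CLDN1, a tight junction claudin, was at 27.4, 28.7 and 29.1 CPM with si-CNN3 and 25, 20.5 and 20.9 CPM with si-NC (log2 fold change 0.37, adjusted p = 2.06e-05), and F11R, a junctional adhesion molecule, fell by 0.21 (adjusted p = 0.000525). PATJ (0.13) and MAL2 (0.16) passed more narrowly, and each lost the call in 8 of 16 alternatives, among them PATJ without si-CNN3 replicate 3 or any 1 si-NC replicate, and MAL2 without si-CNN3 replicate 1 or 3 or si-NC replicate 2 or 3. PERP and SPINT2, the most abundant of the list, had log2 fold changes of -0.04 and 0.00.

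Of 20 tested mesenchymal genes, 6 rose and 1 fell, which is 35% called against 13.3% of all tested genes, with a median log2 fold change of 0.10. TNC, a matrix glycoprotein, was at 151, 143 and 147 CPM with si-CNN3 and 117, 109 and 120 CPM with si-NC (log2 fold change 0.35, adjusted p = 4.45e-12). MMP2, a gelatinase, was at 33.8, 28.2 and 31.1 CPM against 22.9, 20.8 and 23.3 CPM (log2 fold change 0.48, adjusted p = 4.71e-08). AXL, a receptor tyrosine kinase, rose by 0.51 on the log2 scale from a low level (adjusted p = 0.00124). In all 3 genes the groups did not overlap, as in 28.2% of all tested genes. CD44, a hyaluronan receptor, rose by 0.11. THBS1 (0.22) and LOX (-0.11) were also called, and are named here after their values were seen. LOX, the only gene of the list that fell, lost the call without si-CNN3 replicate 2 or si-NC replicate 1 or 2, and with DESeq2 and limma (adjusted p 0.000324 to 0.316 over its alternatives). CD44 lost the call without si-NC replicate 2 (adjusted p 8.48e-05 to 0.101 over its alternatives). MSN, the most abundant of the list, had a log2 fold change of -0.06. It passed in 2 of its 16 alternatives, among them without si-NC replicate 2 (adjusted p = 0.0480, with 0.0160 to 0.509 over its alternatives).

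Of 26 tested genes of TGF-β signalling and other inducers of EMT, 2 rose and 4 fell, 23.1% called against 13.3% of all tested genes (median log2 fold change -0.01). The ligands TGFB1 and TGFB2 fell, TGFB1 from 64.5, 57.7 and 62.3 CPM with si-NC to 53.6, 48.2 and 47.1 CPM (log2 fold change -0.31, adjusted p = 1.76e-06) and TGFB2 from 98.9, 93.2 and 101 CPM to 77.3, 77.2 and 79.3 CPM (-0.32, adjusted p = 8.12e-10). The receptors TGFBR3 and TGFBR2 rose, by 0.31 and 0.19 on the log2 scale, TGFBR2 being named after its values were seen. ID1, a target of BMP and TGF-β signals, fell by 0.25, and NOTCH1 by 0.27 (adjusted p = 4.14e-09). The call of ID1 held in 15 of its 16 alternatives (adjusted p up to 0.0729 over edgeR, DESeq2 and limma). HIF1A was abundant and had a log2 fold change of 0.02.

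Of 28 tested corepressors and stability factors of the SNAI and ZEB proteins, 1 rose and 2 fell, 10.7% against 13.3% of all tested genes. BTRC, a ubiquitin ligase subunit, had a log2 fold change of -0.19 (adjusted p = 0.00498, edgeR). It was called in 14 of its 16 alternatives (adjusted p up to 0.0893 over edgeR, DESeq2 and limma). FBXO45 (-0.13) and COPS2 (0.11) lay close to the threshold: FBXO45 lost the call without any 1 of the 6 samples and COPS2 without si-CNN3 replicate 3 or any 1 si-NC replicate, with adjusted p up to 0.293 and 0.266 over their alternatives. HDAC1, the most abundant of the list, had a log2 fold change of -0.06. Of 16 tested proteases and partners of cadherins and EPCAM, 1 rose and 3 fell, 25% against 13.3% of all tested genes. FHL2 rose by 0.31 (adjusted p = 2.35e-05), and the sheddase ADAM17 (-0.19), ADAM15 (-0.15) and TIMP2 (-0.14) fell. ADAM17 lost the call with DESeq2 and both limma settings, and without si-CNN3 replicate 1 or 3 or si-NC replicate 2 (adjusted p 0.00891 to 0.182 over its alternatives). TIMP2 lost it with both limma settings (adjusted p up to 0.0908 over its alternatives). ADAM10, the main sheddase of CDH1, had a log2 fold change of 0.05, and TIMP1 one of 0.00.

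**Figure D4:**
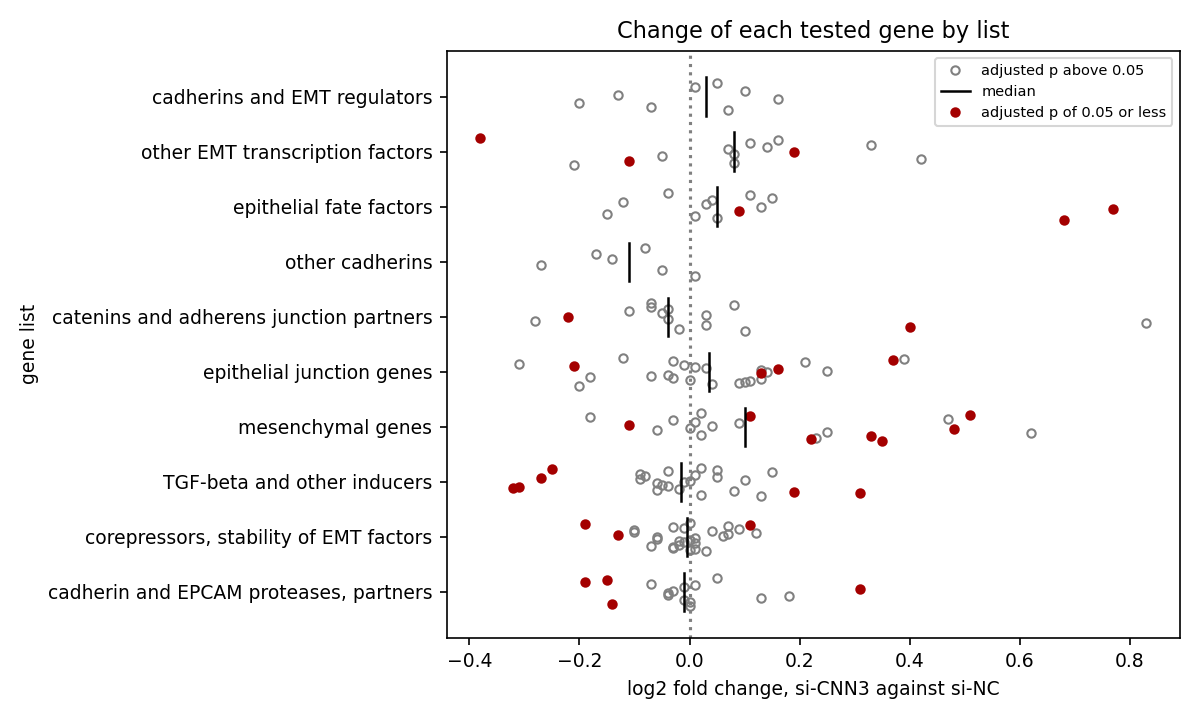
Log2 fold change of every tested gene in each list (points; filled where the adjusted p was 0.05 or less) with the list median (bar). The 8 tested cadherins and EMT regulators hold 0 filled points, and 6 of the 7 filled points of the mesenchymal list lie above 0.

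The epithelial label of the cells was checked on its markers. KRT7 (800 FPKM), KRT8 (531), KRT17 (186) and KRT18 (115) were abundant in si-NC, as was CDKN2A (345), which is typically raised in HPV-positive cells. The simple-epithelial keratin KRT19 was far lower, at 6.72 FPKM. The squamous keratins KRT5 and KRT14 had 0 to 11 counts per sample and KRT6A had 11 to 21. KRT8 and KRT18 fell with si-CNN3 (log2 fold change -0.19 and -0.18), and KRT17 rose (0.23). Fibroblast markers summed to 12.4 to 13.4 CPM with si-CNN3 and 11.7 to 13.1 CPM with si-NC, with 0 of 5 tested genes called and 1 at an unadjusted p under 0.05 in edgeR. Endothelial markers summed to at most 1.1 CPM in any sample, without PECAM1, which was not found by its symbol. Of the leukocyte markers, CD14 was at 136 FPKM in si-NC and fell by 0.30 on the log2 scale, whereas PTPRC, the marker of all leukocytes, had 6 to 18 counts per sample and CD68 at most 2.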

How the data were processed

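RNA was measured in 6 samples of SiHa, 3 per group, grouped by their labels. The authors screened the reads, aligned them with TopHat2 2.0.9 and Bowtie2 2.0.6 (submitters' processing notes, which also name HTSeq) and deposited raw counts per Ensembl gene. The authors also deposited FPKM. Each gene's length was derived from their FPKM and counts, as the median over samples. With that length in every sample, count over length and column total returned the FPKM of all 30502 genes with counts, within a relative tolerance of 1e-06. For a gene counted in a single sample this match is fixed by the derivation. Build, annotation and strand setting are not given in the sources used here.

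Counts were tested with edgeR 4.0.16 in R 4.3.3 (TMM, filterByExpr, glmQLFit and glmQLFTest, condition only; 15860 genes; Benjamini-Hochberg, threshold 0.05). Standard errors are the absolute log2 fold change over the root of F, with 95% intervals from the fit. Alternatives were DESeq2 1.42.0 and, for log2 FPKM with a pseudocount of 1 or 0.1, limma 3.58.1. In simulated counts for this comparison, at an absolute log2 fold change of 0.5, edgeR recovered 95.7% of the changed genes with a mean of at least 100 counts and 21.4% of those under 100; DESeq2 recovered 85.7% and 0%. Recovery of smaller changes was not tested. The 8 tested cadherins and EMT regulators had estimates of -0.2 to 0.16, so these shares do not apply to their result. At a log2 fold change of 1 and under 100 counts the shares were 78.6% and 31.0%. A bar first set for this test, over 80% of all genes at a log2 fold change of 1, was met by edgeR and missed by DESeq2, at 80.0%; it was replaced by recovery at 100 or more counts, right sign and few false calls.

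Genes named are the 10, CNN3 and, per list, up to 4 called genes with the largest change (at least 1 CPM), any with an absolute change of at least 0.5 and the 2 with the highest FPKM. Some genes that this rule names are not reported here. Members and lists were chosen with earlier results of these data known. Intervals on sums and limits from 0 counts cover counting error only.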

Additional observations from a re-analysis of the deposited data

How the results depend on the processing

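Of the 10 genes, 0 were called under every alternative run except without si-CNN3 replicate 1, which gave 1 (TWIST1), so the leave-one-out range was 0 to 1. Over all genes, edgeR called 2111, DESeq2 1087, limma 1363 with a pseudocount of 1 and 1020 with 0.1, and edgeR 1551 to 1747 with 1 sample left out. Deviations from the group means correlated weakly between same-numbered samples (0.0105, 0.0329 and 0.0275). Between differently numbered samples the correlations were -0.027 to -0.0008. Whether the numbers pair the samples cannot be decided from these small values, and the main fit used no block. The replicate block gave 2727 calls over all genes and 0 of the 10, with 4 catenins and partners (2 without it) and 7 corepressors (3 without it). DESeq2 called 1 further EMT factor (3 in edgeR), 2 epithelial junction genes (4) and 1 corepressor. Without the filter on low counts these were 2 junction genes and 1 corepressor, and thinning to the smallest total left 1 corepressor. With limma and a pseudocount of 1, 1 catenin or partner, 1 corepressor and 2 proteases and partners (4) were called. With 0.1 these were 1, 0 and 2, beside 1 epithelial fate factor (3) and 2 junction genes. With 1 sample left out, 1 to 3 further EMT factors, 2 to 4 junction genes and 1 to 3 corepressors were called. The estimates that did not pass changed sign for CDH3 (-0.03 to 0.03), EPCAM (-0.02 to 0.22) and SNAI2 (-0.23 to 0.36) over their alternatives. The length used changed levels between genes, as the report gives. The causes were not tested. SNAI2, VIM and CDH2 had at most 41, 8 and 1 counts per sample.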

Other observations

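TWIST2, the paralog of TWIST1, was read after the values were seen. It was at 10.6, 9.58 and 9.09 CPM with si-CNN3 and 11.8, 11 and 11 CPM with si-NC. Its groups did not overlap, as in 28.2% of all tested genes. TWIST2 stood at 86.7% of control (95% interval 76.5% to 98.1%, adjusted p = 0.124, edgeR's quasi-likelihood test), so it did not pass the threshold. TWIST1 stood at 86.9% of control.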
